A study of Mus musculus with 4 samples.

Results

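The genes that form and cut up the presomitic mesoderm were examined in whole mouse embryos with and without Ddx6, a DEAD-box RNA helicase of cytoplasmic P-bodies. The set was 10 listed genes of the 24421 genes in the count table: Dll1, Dll3, Lfng, Hes7, Tbx6, Msgn1, Mesp2, Ripply2, Meox1 and Tcf15. All 10 were found by symbol, and all 10 had at least 10 counts in at least 1 library, as did 14393 genes in all. Poly(A) RNA of whole embryos of the ICR strain was sequenced in 4 libraries: 1 of wild-type embryos at embryonic day 7.5 (E7.5 WT), 1 of wild-type embryos at embryonic day 8.5 (E8.5 WT), and 2 of Ddx6 -/- embryos at embryonic day 8.5 (KO1 and KO2). The knockout allele lacks a loxP-flanked Ddx6 exon, which had been removed by crossing to a ubiquitous deletion line, CAG-Cre, and the embryos came from crosses of heterozygotes. Each knockout library was a pool. KO1 mixed an embryo from before head-fold formation with one from after it, whereas KO2 held embryos from before that stage only. How many embryos each wild-type library held is not given in the sources used here.

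Somites are blocks of mesoderm that bud off one after another from the presomitic mesoderm, the tissue that the primitive streak and later the tail bud lay down behind the head. A transcriptional clock runs in this tissue. The Notch ligand Dll1 activates Notch in neighbouring cells, Hes7 represses its own transcription and that of Lfng, and the glycosyltransferase Lfng and the divergent ligand Dll3 modulate the signal. The transcription factors Msgn1 and Tbx6 give posterior cells their presomitic identity. Mesp2 and Ripply2 then mark and end the segment about to form, and Meox1 and Tcf15 are made in the somites themselves.

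The promoters of the clock genes Hes7 and Lfng, of Msgn1 and of Mesp2 are shown first, because these genes are switched by Notch, bHLH and T-box factors and took different courses in the knockout libraries described below. RefSeq (GRCm38.p6) gave a promoter for 8 of the 10 genes. Meox1 and Tcf15 had no entry. Sequences run 5′ to 3′ on the gene's strand from 250 bases before the RefSeq start to the last base before the gene model begins. Capitals mark the RBPJ word TGGGAA, the core bound by the Notch effector, and the E-box CANNTG, the core bound by bHLH factors, each searched on both strands. The Hes7 bases lie at chr11:69120203-69120403 on the plus strand, those of Lfng at chr5:140607091-140607319 on the plus strand, those of Msgn1 at chr12:11208973-11209198 on the minus strand and those of Mesp2 at chr7:79810477-79810726 on the plus strand.
Hes7: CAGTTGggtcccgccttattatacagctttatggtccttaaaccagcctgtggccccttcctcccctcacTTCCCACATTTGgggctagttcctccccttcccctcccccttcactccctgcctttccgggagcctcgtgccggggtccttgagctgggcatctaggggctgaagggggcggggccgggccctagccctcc
Lfng: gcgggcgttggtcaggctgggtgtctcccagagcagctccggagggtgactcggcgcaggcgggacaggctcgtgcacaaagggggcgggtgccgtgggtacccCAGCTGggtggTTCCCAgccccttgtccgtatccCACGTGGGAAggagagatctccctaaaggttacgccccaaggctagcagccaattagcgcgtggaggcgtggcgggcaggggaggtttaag
Msgn1: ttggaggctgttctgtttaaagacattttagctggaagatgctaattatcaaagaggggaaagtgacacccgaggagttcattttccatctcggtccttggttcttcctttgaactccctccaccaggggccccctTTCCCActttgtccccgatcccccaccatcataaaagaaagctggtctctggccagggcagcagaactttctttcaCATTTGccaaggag
Mesp2: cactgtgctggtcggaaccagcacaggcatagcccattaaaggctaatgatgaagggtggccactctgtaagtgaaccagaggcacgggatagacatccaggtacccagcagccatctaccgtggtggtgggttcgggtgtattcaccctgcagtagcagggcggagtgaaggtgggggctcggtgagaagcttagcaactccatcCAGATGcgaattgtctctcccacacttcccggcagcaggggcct
In the 250 bases before the start, the RBPJ word was found in 3 of 8 genes (Hes7, Lfng and Msgn1), beside 21.6% of 32817 promoters of the same length. Lfng held it in 2 places, the nearer of which shared bases with an E-box. An E-box was found in 7 of 8 genes, Tbx6 being the exception, beside 66.22% of all promoters. The N-box CACNAG, a core bound by Hes repressors, was found in 4 of 8 (Hes7, Lfng, Msgn1 and Tbx6), beside 36.67% of all promoters. The T-box word GGTGTGA was found in 1 of 8, Ripply2, beside 3.334% of all promoters. Among the 8 genes these words were found only in those named, and a match is a description of the sequence and not a bound site. The upstream windows of Dll3 and of 1 of the 2 Dll1 starts lay inside the GENCODE gene model.

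In the mm10 assembly (GRCm38, GENCODE M21 models) Dll1 lies on chr17:15367354-15376872, Dll3 on chr7:28293553-28302238, Lfng on chr5:140607320-140615545, Hes7 on chr11:69120404-69124055 and Tbx6 on chr7:126781483-126785560. Msgn1 is a gene of 1 exon at chr12:11208360-11208972. Mesp2 lies on chr7:79810727-79813439, Ripply2 on chr9:87015537-87019917, Meox1 on chr11:101877510-101894374 and Tcf15 on chr2:152143561-152149097. No exon of these genes overlapped a gene on the same strand. Exons of Dll1 and Hes7 overlapped A930024N18Rik and 9130213A22Rik on the opposite strand, and the authors counted reads by strand.

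The libraries held 8198402 to 12562640 counted reads, KO1 the fewest, over 16511 to 17112 genes. Ddx6 itself had 2943 counts in E7.5 WT against 5715 in E8.5 WT, and 706 in KO1 against 929 in KO2, so both knockout libraries matched their labels, although counts per gene do not show which exons the remaining reads came from. The knockout libraries differed from each other as well: 4.89% of the 14393 genes tested were more than 1 log2 unit lower in KO2 than in KO1 and 5.99% were more than 1 log2 unit higher. Markers of other cell types moved with this split. Levels are given as CPM, in which each count is divided by the TMM-scaled size of its library. Summed over 7 primitive streak markers, the level was 523.7 CPM in E7.5 WT against 124.2 in E8.5 WT, and 150.4 in KO1 against 500.1 in KO2. Summed over 5 epiblast markers it was 2038, 521.3, 711.2 and 2934 CPM in the same order, and over 8 trophoblast markers 275.8, 200.6, 451.8 and 868.0 CPM. Hand1, which is also in the list of lateral plate and cardiac markers, made up most of the trophoblast sum outside KO2, and without it the other 7 markers summed to 59.8, 19.2, 29.7 and 537.5 CPM. Of the trophoblast markers, Tpbpa was at 0 in all libraries, Ctsq in all but KO2, and Prl3d1 had 4156 counts in KO2 and at most 27 elsewhere. The streak sums of E7.5 WT and KO2 differed in makeup, with T at 324.9 and 121.9 CPM and Eomes at 112.1 and 256.7 CPM. Dnmt3b made up most of the epiblast sum in each library, with 2334 of 2934 CPM in KO2.

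KO1 carried the segmentation genes other than Tcf15 within 1 log2 unit of E8.5 WT, and KO2 did not. In KO2, the somite factor Meox1 and the presomitic factor Msgn1 were near absent. The clock repressor Hes7, Tcf15 and Tbx6 were low there, and Dll3 and Mesp2 were higher than in E8.5 WT. Lfng was level in all 4 libraries. Against E8.5 WT, 1 of 10 genes in KO1 (Tcf15) was below a log2 change of -1, beside 3.31% of all genes tested, and 0 of 10 were above 1, beside 4.97% of all genes. In KO2, 5 of 10 (Hes7, Tbx6, Msgn1, Meox1 and Tcf15) were below -1, beside 5.91% of all genes, and 2 of 10 (Dll3 and Mesp2) were above 1, beside 9.41%. The median log2 change of the 10 genes was 0.21 in KO1 and -1.03 in KO2, where that of all genes was -0.01 and -0.00. Log2 changes are differences of log2 CPM with a prior count of 2, and the 95% intervals given with them are exact binomial intervals of the 2 counts that cover counting error only.

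**Figure D1:**
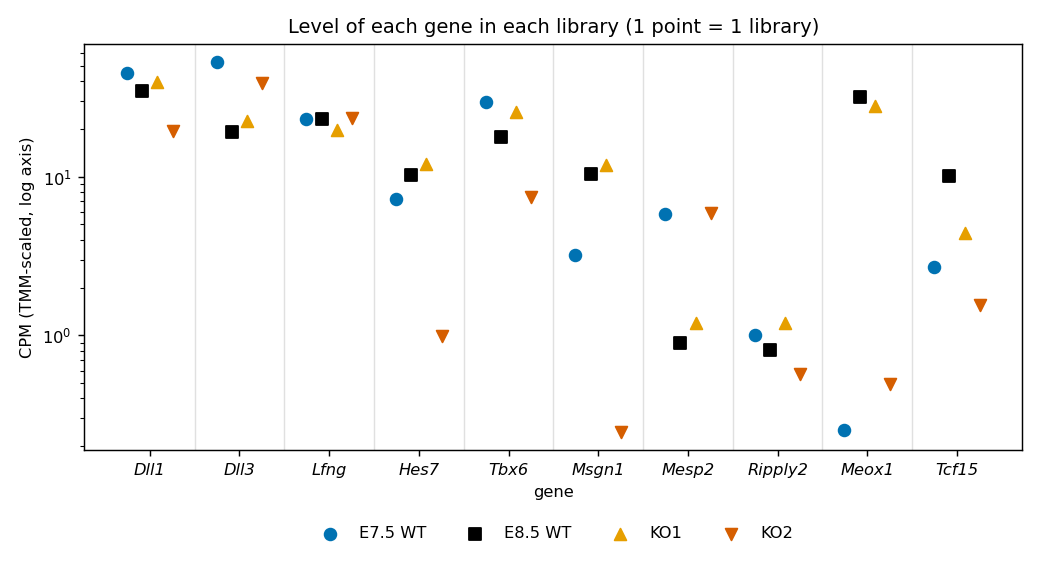
CPM of the 10 segmentation genes (log axis) in each of the 4 libraries, 1 point per library with no error bar. The KO1 triangles lie close to the E8.5 WT squares except for Tcf15, while in KO2 Meox1, Msgn1 and Hes7 are all under 1 CPM.

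Only Tcf15 was below -1 in both knockout libraries, 1 of 10 genes beside 1.79% of all genes tested, and 0 of 10 were above 1 in both, beside 3.44%. In edgeR's two-sided quasi-likelihood test of the 2 knockout libraries against E8.5 WT, 0 of 10 genes and 0 of 14393 (0%) had an adjusted p under 0.05. Without adjustment, 0 of 10 and 1052 of 14393 genes had a p under 0.05, and with DESeq2 0 of 10 and 31 genes had an adjusted p under 0.05. The spread in this test comes from the knockout pair alone, and the single wild-type libraries are assumed to vary as that pair does. The p-values therefore rest on the distance between 2 pools that differed in stage. Ddx6 itself, at a mean log2 change of -2.54 ± 0.10 (SD, n = 2), did not pass edgeR's test, although it passed that of DESeq2. Since edgeR's test missed the deleted gene, a gene that did not pass it cannot be called unchanged. Adjusted p-values of the 10 genes ran from 0.666 (Tcf15) to 0.983 (Ripply2) in edgeR. DESeq2 gave no adjusted p for Ripply2 in any comparison, nor for Mesp2 in those with E7.5 WT.

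**Figure D2:**
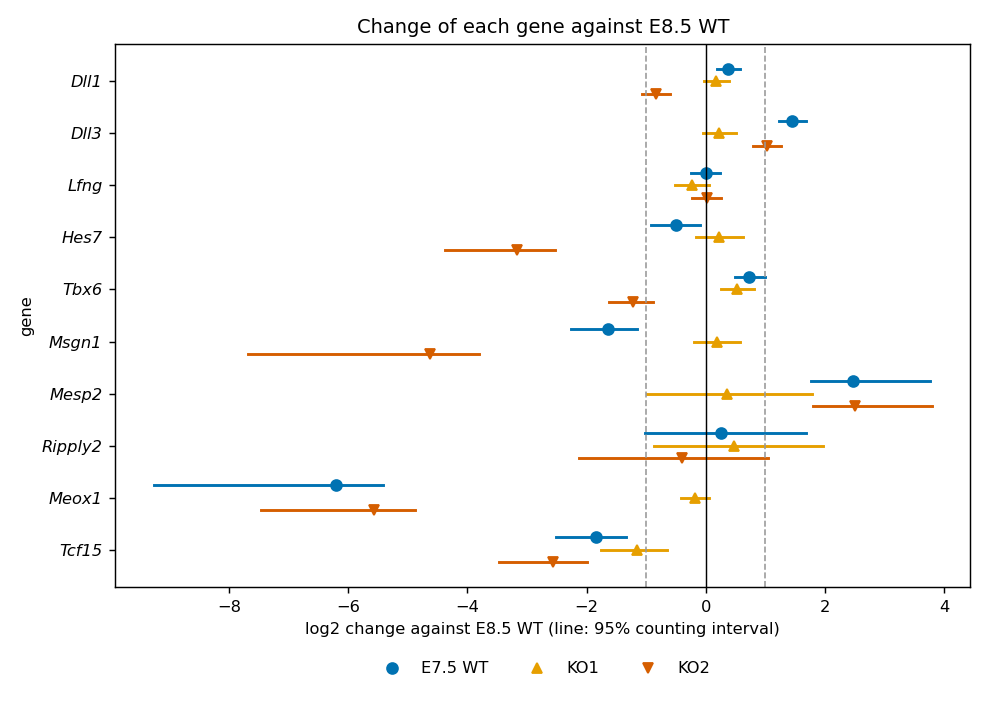
Log2 change of each gene against E8.5 WT in E7.5 WT, KO1 and KO2, with lines for the 95% counting interval and dashed lines at -1 and 1. The KO2 intervals of Hes7, Msgn1, Meox1 and Tcf15 lie wholly below -1, and for Dll3 and Mesp2 the KO2 and E7.5 WT points both lie above 1.

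The somite factors separated the libraries in different ways. Meox1, a homeobox gene of the forming and formed somite, had 3 counts in E7.5 WT against 390 in E8.5 WT, and 235 in KO1 against 6 in KO2. E8.5 WT and KO1 were thus high, and E7.5 WT and KO2 lay near the floor of 3 counts. On the CPM scale these counts were 0.252, 31.7, 28.0 and 0.492. The log2 change against E8.5 WT was -0.18 in KO1 (interval -0.42 to 0.06) and -5.57 in KO2 (interval -7.47 to -4.88). KO2 and E7.5 WT could not be told apart for Meox1 at this depth (log2 change 0.64, interval -1.26 to 3.59).

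Tcf15, the bHLH factor Paraxis of the epithelial somite, had 32 counts in E7.5 WT against 124 in E8.5 WT, and 37 in KO1 against 19 in KO2. Both knockout libraries lay well below the E8.5 WT library. The log2 change against it was -1.16 in KO1 (interval -1.77 to -0.65) and -2.56 in KO2 (interval -3.47 to -1.99), a mean of -1.86 ± 0.99 (SD, n = 2), which did not pass edgeR's test (adjusted p = 0.666; DESeq2 adjusted p = 0.9998). Against E7.5 WT the intervals of both knockout libraries included 0, at log2 changes of 0.68 in KO1 and -0.72 in KO2. So KO1 differed between the somite factors: Meox1 stood at the E8.5 WT level, and Tcf15 lay below it, within counting error of E7.5 WT. In whole-embryo RNA, fewer somite or presomitic cells and less RNA per cell cannot be told apart.

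The presomitic transcription factors were present in KO1 and low in KO2. Msgn1, a bHLH factor of the posterior presomitic mesoderm, had 38 counts in E7.5 WT against 127 in E8.5 WT, and 99 in KO1 against 3 in KO2. KO2 was the lowest library, below E7.5 WT as well. The log2 change was 0.19 in KO1 against E8.5 WT (interval -0.20 to 0.58), and in KO2 it was -4.63 against E8.5 WT (interval -7.69 to -3.81) and -2.99 against E7.5 WT (interval -6.04 to -2.04).

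Tbx6, the T-box factor that directs cells to a mesodermal rather than a neural fate, had 351 counts in E7.5 WT against 218 in E8.5 WT, and 215 in KO1 against 91 in KO2. KO2 was again lowest, and KO1, with fewer reads in all, was higher than E8.5 WT on the CPM scale (29.5, 17.7, 25.6 and 7.47 CPM in the same order). The log2 change against E8.5 WT was 0.53 in KO1 (interval 0.25 to 0.81) and -1.23 in KO2 (interval -1.62 to -0.89). Against E7.5 WT the KO2 change was -1.96 (interval -2.33 to -1.65).

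Hes7, the repressor at the core of the clock, had 86 counts in E7.5 WT against 126 in E8.5 WT, and 101 in KO1 against 12 in KO2. Its level was 7.23, 10.3 and 12.03 CPM in the first 3 libraries and 0.985 CPM in KO2, the lowest. E7.5 WT was below KO1 (log2 change of KO1 against it 0.72, interval 0.31 to 1.17) and below E8.5 WT by more than counting error. The log2 change was 0.23 in KO1 against E8.5 WT (interval -0.16 to 0.62), and in KO2 it was -3.16 against E8.5 WT (interval -4.37 to -2.53) and -2.67 against E7.5 WT (interval -3.88 to -1.998).

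Lfng, the Fringe enzyme that Hes7 represses, stayed level. It had 274 counts in E7.5 WT against 283 in E8.5 WT, and 165 in KO1 against 284 in KO2, or 23.0, 23.0, 19.7 and 23.3 CPM. The libraries overlapped within counting error, with log2 changes against E8.5 WT of -0.23 in KO1 (interval -0.51 to 0.05) and 0.02 in KO2 (interval -0.23 to 0.26). Lfng was thus within 0.26 log2 units of E8.5 WT in a library where Hes7 was more than 2 log2 units below it.

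The Delta ligands went in opposite directions in KO2. Dll1, which activates Notch, had 539 counts in E7.5 WT against 428 in E8.5 WT, and 331 in KO1 against 237 in KO2. KO2 was the lowest, with a log2 change of -0.83 against E8.5 WT (interval -1.08 to -0.61) and -1.21 against E7.5 WT (interval -1.45 to -0.998), and KO1 was at 0.18 against E8.5 WT (interval -0.03 to 0.39). Dll3, a ligand that does not activate Notch in neighbouring cells, had 624 counts in E7.5 WT against 236 in E8.5 WT, and 189 in KO1 against 477 in KO2. Here the E7.5 WT and KO2 libraries were high and E8.5 WT and KO1 low. The log2 change against E8.5 WT was 0.23 in KO1 (interval -0.05 to 0.51) and 1.02 in KO2 (interval 0.80 to 1.26), the value nearest to the threshold of 1 in KO2, and Dll1 was the nearest to -1 among those not past it.

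Because both ligands were read in the same library, their ratio does not depend on how the libraries were scaled. Dll3 made up 53.65% of the reads of both ligands in E7.5 WT (exact Clopper-Pearson 95% interval 50.74 to 56.55%), 35.54% in E8.5 WT (31.9 to 39.32%), 36.35% in KO1 (32.2 to 40.64%) and 66.81% in KO2 (63.22 to 70.26%). E8.5 WT and KO1 shared a value, and KO2 was higher than E7.5 WT by more than counting error. There were 2.01 Dll3 reads per Dll1 read in KO2 and 0.571 in KO1.

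**Figure D3:**
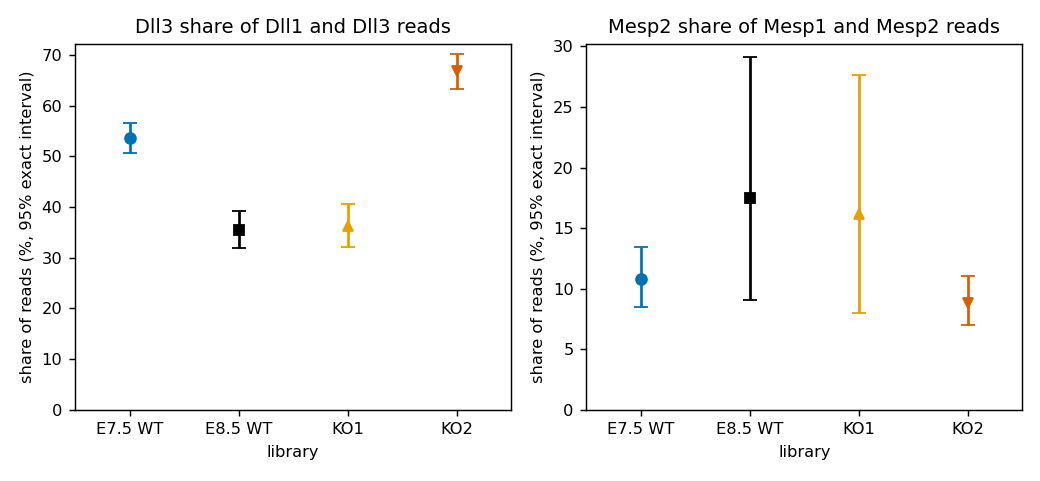
Share of reads (%) of Dll3 among Dll1 and Dll3 reads (left) and of Mesp2 among Mesp1 and Mesp2 reads (right) in each library, with exact 95% binomial intervals. The Dll3 share is 35.54% in E8.5 WT and 66.81% in KO2, while the Mesp2 share is 8.856% in KO2 with an interval that overlaps that of E7.5 WT.

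Mesp2, the bHLH factor that sets the segment border, had 69 counts in E7.5 WT against 11 in E8.5 WT, and 10 in KO1 against 72 in KO2. The E7.5 WT and KO2 libraries were high and the other two low. The log2 change in KO2 was 2.50 against E8.5 WT (interval 1.80 to 3.79) and 0.03 against E7.5 WT (interval -0.47 to 0.52), and in KO1 it was 0.35 against E8.5 WT (interval -0.98 to 1.79).

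Its paralog Mesp1, made by early mesoderm as it leaves the primitive streak, was high in the same libraries, with 570 counts in E7.5 WT against 52 in E8.5 WT, and 52 in KO1 against 741 in KO2. Mesp2 was 10.8% of the reads of the pair in E7.5 WT (interval 8.499 to 13.47%), 17.46% in E8.5 WT (9.052 to 29.1%), 16.13% in KO1 (8.015 to 27.67%) and 8.856% in KO2 (6.994 to 11.02%). Each interval overlapped the E7.5 WT interval. The primitive streak marker Eomes had 1333, 64, 77 and 3128 counts in the same library order, and its part in the Mesp2 difference was not tested.

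Ripply2, the repressor that ends Mesp2 and Tbx6 activity at the border, had 12 counts in E7.5 WT against 10 in E8.5 WT, and 10 in KO1 against 7 in KO2. The libraries overlapped, and no difference was detectable at this depth. The interval of the KO2 change against E8.5 WT ran from -2.13 to 1.04 in log2 units.

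Between the wild-type stages, 3 of 10 genes were more than 1 log2 unit higher in E8.5 WT than in E7.5 WT, beside 12.2% of all genes tested, and 2 of 10 were more than 1 lower, beside 7.82%. The higher genes were Meox1 (log2 change 6.21, interval 5.42 to 9.26), Tcf15 (1.84, interval 1.34 to 2.52) and Msgn1 (1.64, interval 1.16 to 2.26). The lower genes were Mesp2 (-2.48, interval -3.76 to -1.77) and Dll3 (-1.44, interval -1.67 to -1.23). Lfng was at -0.00, and Hes7 at 0.49, Dll1 at -0.38, Tbx6 at -0.73 and Ripply2 at -0.26 made up the rest. With 1 library a stage these differences have no replicate check. Under edgeR, with the spread of the knockout pair, 0 of 10 genes and 0 of 14393 (0%) passed at an adjusted p under 0.05. Without adjustment 1 of 10 (Dll3) and 3099 of all genes had a p under 0.05, and DESeq2 called 0 of 10 and 438 of all genes.

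Against E7.5 WT, the younger wild-type stage, the knockout libraries went apart. In KO1, 2 of 10 genes (Msgn1 at 1.83 and Meox1 at 6.03) were above 1, beside 13.2% of all genes, and 2 of 10 (Dll3 at -1.21 and Mesp2 at -2.13) were below -1, beside 7.45%. In KO2, 4 of 10 genes (Dll1, Hes7, Tbx6 and Msgn1) were below -1, beside 4.06% of all genes, and 0 of 10 were above 1, beside 10.9%. In KO2, Meox1, Tcf15, Mesp2 and Lfng had intervals against E7.5 WT that included 0, as did Ripply2 at its low counts, and Dll3 was at -0.42 (interval -0.60 to -0.25). No gene was past the threshold in both knockout libraries, 0 of 10 lower beside 2.7% of all genes and 0 of 10 higher beside 6.91%. Under edgeR 0 of 10 genes and 0 of 14393 (0%) passed in this comparison, with 0 of 10 and 3511 at an unadjusted p under 0.05, and DESeq2 called 0 of 10 and 721 of all genes. The comparisons with E8.5 WT and with E7.5 WT share the knockout libraries, and the stage comparison shares the wild-type ones.

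Between the knockout libraries, 6 of 10 genes were more than 1 log2 unit lower in KO2 than in KO1, set against the 4.89% of all genes given above, and 1 of 10 was more than 1 higher, beside 5.99%. The lower genes were Meox1 (-5.39, interval -7.29 to -4.69), Msgn1 (-4.82, interval -7.88 to -3.99), Hes7 (-3.39, interval -4.61 to -2.74), Tbx6 (-1.75, interval -2.15 to -1.42), Tcf15 (-1.40, interval -2.38 to -0.66) and Dll1 (-1.01, interval -1.27 to -0.77). The higher gene was Mesp2 (2.15, interval 1.35 to 3.43). Since both libraries carry the same genotype label and differ in the stages pooled, this gap is the spread against which every knockout value above has to be read. The SD of the 2 knockout log2 changes ran from 0.17 for Lfng to 3.81 for Meox1.

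Levels were compared between genes per kilobase of exon. In E8.5 WT the order was Msgn1 (16.9 CPM per kb), Meox1 (14.2), Tcf15 (10.3), Tbx6 (9.83), Lfng (9.19), Dll1 (8.25), Dll3 (6.74), Hes7 (5.67), Ripply2 (1.11) and Mesp2 (0.460). KO1 was led by Msgn1 (19.2 CPM per kb), Tbx6 (14.2) and Meox1 (12.6). In KO2 the order was headed by Dll3 (13.7 CPM per kb), Lfng (9.30) and Dll1 (4.61), with Hes7 (0.544), Msgn1 (0.402) and Meox1 (0.221) last. E7.5 WT was led by Dll3 (18.4), Tbx6 (16.4) and Dll1 (10.7), with Meox1 (0.113) last. The leaders of E8.5 WT were thus at the bottom in KO2 in the case of Msgn1 and Meox1. With 1 library a stage, no spread over samples is available to separate neighbours in these orders. Summed over the 10 genes the level was 170.5 CPM in E7.5 WT against 158.9 in E8.5 WT, and 165.8 in KO1 against 99.1 in KO2.

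The tail bud genes that feed the presomitic mesoderm were described with a list of 16. In both knockout libraries 3 of 16 (Cdx4, Hes3 and Fgf17) were below -1 against E8.5 WT, beside 1.79% of all genes tested. Above 1 in both were 0 of 16, beside 3.44%. In single libraries, 4 of 16 were below -1 in KO1, beside 3.31% of all genes, and 9 of 16 in KO2, beside 5.91%. Above 1 were 0 of 16 in each, beside 4.97% in KO1 and 9.41% in KO2. The medians were -0.46 in KO1 and -1.23 in KO2. The Cdx factors pattern the posterior axis. Cdx1 had 118 counts in E7.5 WT against 1391 in E8.5 WT, and 806 in KO1 against 22 in KO2, and Cdx2 had 990, 1326, 653 and 150. Both were lowest in KO2, with log2 changes there of -5.84 and -3.11, and in KO1 they were at -0.24 and -0.47. Wnt3a, the Wnt ligand of the streak and tail bud, had 133, 180, 137 and 33 counts in the same order. Nkx1-2, a homeobox gene of axial progenitors, had 359, 837, 556 and 99. Hes3 had 1, 306, 79 and 0 counts, at least 101.2-fold lower in KO2 than in E8.5 WT when its 0 is set to the floor of 3 counts. With Hes3 at this bound the KO2 median was -1.23, which could not move because Hes3 stayed below it. Not every tail bud gene was low in KO2. T (Brachyury) was at 0.68 there, Fgf8 at 0.07 and Rspo3 at 0.31, although Fgf8 was at -1.17 in KO1.

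The genes downstream of the segment border were described with a list of 12. Against E8.5 WT, 2 of 12 (Tbx18 and Uncx) were below -1 in both knockout libraries, beside 1.79% of all genes tested. Above 1 in both was 1 of 12 (Cer1), beside 3.44%. Tbx18 marks the anterior and Uncx the posterior part of a somite. Tbx18 had 7 counts in E7.5 WT against 35 in E8.5 WT, and 2 in KO1 against 7 in KO2, and Uncx had 8, 14, 1 and 5, so both rest on few reads. Foxc1 and Foxc2, forkhead factors of paraxial mesoderm, were at -0.61 and -0.70 in KO1 and -2.22 and -1.88 in KO2. Cer1, a secreted inhibitor of Nodal and BMP made in anterior endoderm as well as in the forming somite, had 835, 135, 202 and 2021 counts. The medians of the list were -0.12 in KO1 and -0.54 in KO2.

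Of 14 genes of the somite derivatives, 8 passed the count minimum. Against E8.5 WT, 2 of the 8 (Pax7 and Sim1) were below -1 in both knockout libraries, beside 1.79% of all genes tested. Above 1 in both were 0 of 8, beside 3.44%. The medians of the 8 were -0.70 in KO1 and -2.79 in KO2, lower than those of the segmentation genes in each library. Sim1 had 0 counts in KO2, at least 16.5-fold lower than in E8.5 WT at the floor of 3 counts. The KO2 median with Sim1 at this bound was -2.79, which again could not move because Sim1 stayed below it. Aldh1a2, the retinoic acid enzyme of somites, had 80 counts in E7.5 WT against 1723 in E8.5 WT, and 1385 in KO1 against 78 in KO2, so that E8.5 WT and KO1 were high and E7.5 WT and KO2 low, as for Meox1. Pax3, of the dermomyotome and dorsal neural tube, had 9, 159, 57 and 13 counts, and Pax9, of the sclerotome, had 3, 99, 48 and 5. Myf5 had 3 counts in E8.5 WT and 0 elsewhere, and Meox2 6 there and 0 elsewhere.

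Of 16 receptors, partners and targets of the Notch pathway, 0 were past the threshold in both knockout libraries, beside 1.79% of all genes for lower and 3.44% for higher, shares that correspond to under 1 gene in a list of this size. The medians were -0.10 in KO1 and -0.42 in KO2. In KO2 alone, 3 of 16 were below -1, beside 5.91% of all genes, and these were the target genes Hes5 (-2.01), Heyl (-1.65) and Hey2 (-1.38). Hes5 had 27 counts in E8.5 WT and 5 in KO2, and Heyl had 11 and 2. The receptor gene Notch1 was at 0.23 in KO1 and -0.62 in KO2, its DNA-binding partner Rbpj at -0.35 and -0.20, and the target Hes1 at -0.01 and 0.04. Among 11 FGF and Wnt feedback genes, 0 were past the threshold in both, beside the same 1.79% and 3.44% of all genes. Their medians were -0.27 in KO1 and -0.35 in KO2. In KO2 alone 2 of 11 were below -1 (Tnfrsf19 and Nkd1), beside 5.91% of all genes. Above 1 in KO2 was 1 of 11 (Dkk1), a count near the 9.41% of all genes. The Wnt target Axin2 was at 0.11 in KO1 and -0.85 in KO2, and the FGF target Dusp6 at -1.20 and -0.58. No gene of these 5 lists had an adjusted p under 0.05 in edgeR's test against E8.5 WT.

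**Figure D4:**
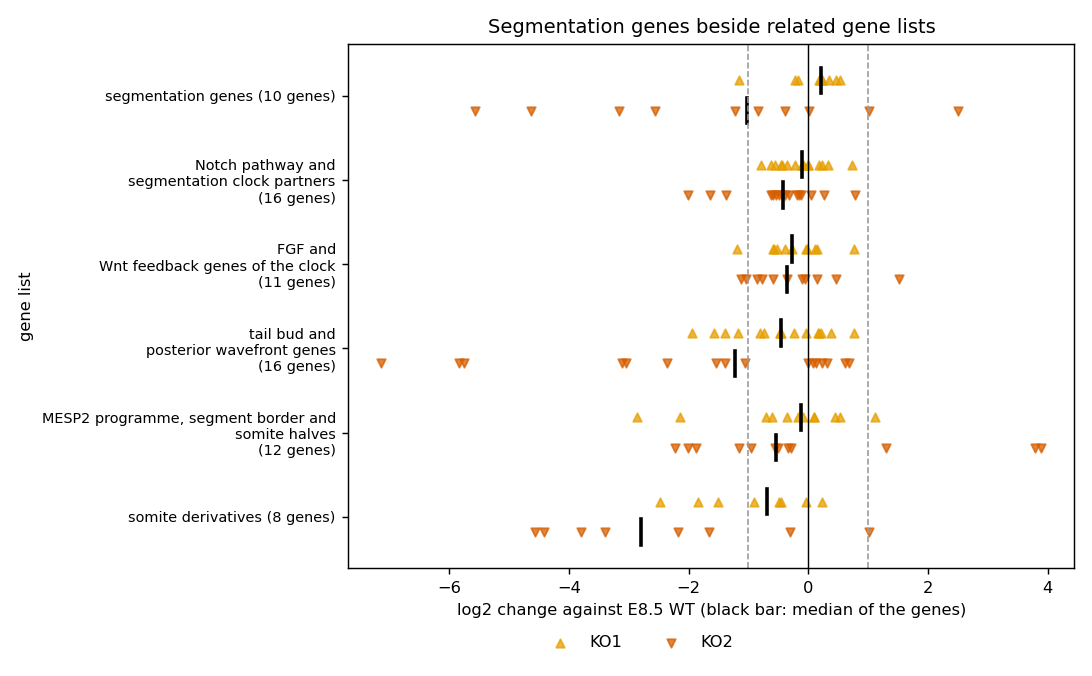
Log2 change against E8.5 WT of each gene of the segmentation set and of 5 related lists in KO1 and KO2 (1 point per gene), with black bars at the medians and dashed lines at -1 and 1. The KO2 medians are -1.03 for the segmentation genes, -0.42 for the Notch list and -2.79 for the somite derivatives.

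The other cell types in these embryos were set beside the segmentation genes by their marker lists. Over all genes tested, 1.79% were below -1 and 3.44% above 1 in both knockout libraries against E8.5 WT. Lateral plate and cardiac mesoderm lies next to the presomitic tissue. Its markers summed to 506 CPM in E7.5 WT against 615.5 in E8.5 WT, and 951 in KO1 against 712.6 in KO2. Hand1 alone gave 216.1, 181.4, 422 and 330.5 CPM of these sums. In KO2 alone 3 of 9 were below -1 (Nkx2-5 at -3.95, Tbx5 at -3.485 and Isl1 at -1.76), beside 5.91% of all genes, and 0 were above 1. In both knockout libraries 1 of 9 (Nkx2-5) was below -1. Neural plate markers summed to 135.9, 291.9, 186.4 and 305.0 CPM. Otx2 and Sox2 gave 169 and 96.3 CPM of the KO2 sum, against 57.2 and 107.6 CPM in E8.5 WT. Sox1 and Pax6 were at 43.4 and 14.7 CPM in E8.5 WT and at 3.45 and 1.15 CPM in KO2. In both knockout libraries 4 of 7 neural plate markers were below -1. Visceral endoderm markers summed to 6920, 7167, 4214 and 4009 CPM, with 3 of 8 below -1. Primitive erythroid markers summed to 20.2, 241.3, 1.79 and 1.56 CPM, with 5 of 5 below -1, and decidual markers to 189.5, 82.3, 123.6 and 197.6 CPM, with 1 of 7 above 1. That gene, Prl8a2, alone gave 110.8, 2.12, 7.62 and 117.6 CPM of the decidual sums. The other decidual markers ran from -0.93 (Hoxa10) to 1.03 (Pgr) in KO2 against E8.5 WT. In both knockout libraries 2 of 7 streak, 2 of 5 epiblast and 2 of the 5 tested trophoblast markers were above 1. For the trophoblast pair, Prl3d1 and Prl2c2, the KO1 values rest on 3 and 4 counts against 1 and 0 in E8.5 WT, near the floor, and are set largely by the prior count. Erythroid markers were low in both KO1 and KO2. Visceral endoderm markers were mixed: 3 of 8 were below -1 in both, whereas Amn was at -0.18 and 0.19 and Cubn at -0.39 and -0.46. The paper used extraembryonic tissue or yolk sac for genotyping, and the part of this sampling in these values was not tested. In KO2 alone, 5 of 7 streak and 5 of 5 epiblast markers were above 1, beside 9.41% of all genes. The streak markers T and Evx1 were at 0.68 and -0.01 there. The part of these cell types in the segmentation values was not tested.

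The genes whose 4-library profile lay nearest to the median profile of the segmentation set, by the root mean square distance of log2 changes from E8.5 WT over the other 3 libraries, were Pdlim4 (0.159 log2 units), Hbegf (0.201), Slc45a3 (0.205), Hhat (0.227) and Dlx3 (0.228). Pdlim4 had 269 counts in E7.5 WT against 263 in E8.5 WT, and 172 in KO1 against 124 in KO2. The segmentation genes themselves spread widely around the median, from -5.57 (Meox1) to 2.50 (Mesp2) in KO2 against E8.5 WT. Nearness to the median profile is therefore not likeness to each of these genes.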

How the data were processed

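Whole-embryo poly(A) RNA of 4 libraries was measured by stranded sequencing. The authors deposited read counts of each gene, not normalized. They had used Cutadapt 2.8 for trimming, HISAT2 2.1.0 for alignment to mm10, SAMtools 1.9 for file handling and featureCounts 2.0.0 for strand-specific counting over exons.

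Groups came from the labels. Counts of all 24421 genes were scaled with TMM factors (edgeR 4.0.16, R 4.3.3). The 14393 genes that reached 10 counts in some library entered the tests. Log2 changes were differences of log2 CPM with a prior count of 2, and a call required a log2 change past 1 or -1 in both knockout libraries. Two-sided quasi-likelihood tests with Benjamini-Hochberg adjustment were fitted to 3 groups over all kept genes. They were also run on simulated data in which both knockout libraries shared each change, unlike the pools here. That run therefore does not show how the tests perform on pools that differ. DESeq2 1.42.0 was the alternative test. Exact Clopper-Pearson 95% intervals (scipy 1.17.1) cover counting error only, because each is a binomial interval of 2 counts without spread between replicates. They treat reads as independent, which PCR reads that carry no molecular identifier are not. The intervals may therefore be too narrow even for counting error. The floor was 3 counts. Total counts of 8198402 to 12562640 make these intervals wide for Ripply2 and Mesp2.

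The genes named are the 10 listed genes, examples from the 5 related lists and 8 marker lists, and the 5 nearest profiles among genes with at least 50 counts in some library. Genes and lists were chosen with earlier results of these data known. Examples within lists were picked after their values were seen. Alternatives were another scaling, count minimum, prior count, threshold and test, and leaving out each knockout library. Exon lengths and positions came from GENCODE M21 (GRCm38), the assembly of mm10, and promoters from RefSeq (GRCm38.p6).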

Additional observations from a re-analysis of the deposited data

How the results depend on the processing

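The count of segmentation genes past the threshold in both knockout libraries rests on which pool is kept. When each knockout library was left out in turn, so that 1 library stood for the group, the genes lower than in E8.5 WT numbered 1 to 5 and those higher 0 to 2, and the genes lower than in E7.5 WT numbered 2 to 4 and those higher 0 to 2. The 5 lower genes are those of KO2, left when KO1 (replicate 1) is removed, and the 1 is Tcf15 in KO1. The median log2 change of the 10 genes against E8.5 WT, -0.41 with both libraries averaged, was -1.03 without KO1 and 0.21 without KO2. With the threshold raised to a log2 change of 2, the genes lower in both knockout libraries than in E8.5 WT were 0, the genes higher in E8.5 WT than in E7.5 WT were 1 (Meox1) and the genes lower in KO2 than in KO1 were 3 (Meox1, Msgn1 and Hes7). Of 150 values under alternatives, 142 stayed within the limit set for them, by the spread of the knockout pair or 1.5 times a count. That spread is wide, so staying within it says little about Meox1, Msgn1 or Hes7. Plain CPM, without TMM factors, moved the median of all genes in KO2 against E7.5 WT from 0.07 to 0.11. No paired analysis was possible because only the knockout group has replicate numbers. Ripply2 and Mesp2 are limited by depth.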
